A study of Mus musculus with 2 samples.

Results

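Elastic fibre genes were followed through single-cell libraries of the mouse aortic lining as a set of 10 genes, Eln, Fbln5, Fbn1, Mfap4, Mfap5, Lox, Loxl1, Emilin1, Ltbp4 and Fbln2, picked by name from the 27998 genes of the count tables. All 10 were present in both tables. The old library came from 1 C57BL6/J mouse aged 18 months and the young library from 1 C57BL6/J mouse aged 8 weeks. In both, the aorta was freed of adventitia, the luminal surface was bathed in trypsin for 10 minutes, and cells were lifted with a fine blade, so the preparation was made for endothelium and leaves most of the muscular wall behind. Libraries were made from droplets with a 3′ kit, in which every captured transcript molecule gets a unique molecular identifier (UMI). No treatment, mutation or transgene is given for either animal.

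Elastic fibres let the aorta stretch and recoil with each heartbeat. Their core is elastin, secreted as the monomer tropoelastin, and it is laid down on a scaffold of microfibrils built from fibrillin and associated glycoproteins. Fibulins and a latent TGF-beta binding protein guide the monomers onto that scaffold, and lysyl oxidases join them into an insoluble polymer that turns over very slowly in the adult wall. Smooth muscle cells are regarded as the main makers of aortic elastin, with endothelium and fibroblasts adding to the innermost and outermost layers.

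The old library held 3408 barcodes and 19171045 UMIs, and the young library 1366 barcodes and 12576023 UMIs. After filtering, 3330 old and 1359 young cells remained, and 11 barcodes occurred in both libraries (0.323% of old and 0.805% of young barcodes). Cells that carried Pecam1, Cdh5, Cldn5 and other endothelial markers (EC-like cells) numbered 2377 of the old and 1081 of the young cells, and cells that carried Dcn, Col1a1, Pdgfra and other fibroblast markers (fibroblast-like cells) numbered 572 and 239. Smooth muscle-like cells were 11 in the old library and 0 in the young one, where the exact 95% interval reaches 0.271% of cells. Levels are UMIs summed over the cells of a class and scaled to the UMI total of that class in that library (CPM); 3′ tags count molecules and were not divided by transcript length. Each age rests on 1 library, so no difference between ages has a replicate check, no test between ages was made, and every 95% interval below covers counting error only. Because UMIs are scaled within a class, less of a transcript per cell and more RNA of other kinds per cell cannot be told apart.

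Each gene has its own locus on GRCm38 in the GENCODE vM21 annotation. Eln lies on chromosome 5 from 134702593 to 134747323 (minus strand), Fbln5 on chromosome 12 from 101746565 to 101819055 (minus strand), and Fbn1 on chromosome 2 from 125300594 to 125507993 (minus strand). Mfap5 and Fbln2 lie on the plus strand of chromosome 6, and the others are on chromosomes 5 (Emilin1), 7 (Ltbp4), 9 (Loxl1), 11 (Mfap4) and 18 (Lox). None of the 50-base words in the last 500 bases of their transcripts occurs in annotated transcripts of another gene. The search finds identical stretches only, and would miss a copy with a mismatch in every word or one that is not annotated. Only Mfap4 has a gene on the opposite strand over its last 500 bases, Mapk7. How strand was handled in counting is not given in the sources used here.

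A RefSeq table (GRCm38.p6) held promoters, from 250 bases before to 50 bases after the transcript start, for 5 of the 10 genes. Fbln5 and Fbn1 are printed as 1 gene from each side of the split described next, higher in EC-like and in fibroblast-like cells respectively. Fbln5 is not the clearest case of its side, since its log2 ratio of fibroblast-like over EC-like cells was -0.84 in old. Both are 5′ to 3′ on the minus strand, Fbln5 (the first of 2 starts in the table) at chr12:101819070-101819369 and Fbn1 at chr2:125506389-125506688. Capitals mark the GC box GGGCGG and the SMAD box CAGAC, each searched on both strands.
Fbln5: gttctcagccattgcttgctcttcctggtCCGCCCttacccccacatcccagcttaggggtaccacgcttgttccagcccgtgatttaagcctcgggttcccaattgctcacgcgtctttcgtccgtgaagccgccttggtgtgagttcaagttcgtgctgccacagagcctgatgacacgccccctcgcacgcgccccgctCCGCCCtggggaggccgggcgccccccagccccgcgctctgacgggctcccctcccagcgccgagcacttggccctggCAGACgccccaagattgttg
Fbn1: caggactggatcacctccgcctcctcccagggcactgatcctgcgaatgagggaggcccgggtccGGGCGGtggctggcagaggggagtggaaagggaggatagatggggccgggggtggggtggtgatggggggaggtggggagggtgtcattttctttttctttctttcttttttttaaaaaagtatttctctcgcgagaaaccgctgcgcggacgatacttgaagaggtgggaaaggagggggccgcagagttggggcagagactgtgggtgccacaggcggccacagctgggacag
The Fbln5 window held 2 GC boxes and 1 SMAD box, and the Fbn1 window held 1 GC box and 0 SMAD boxes. Among 32851 mouse promoters of this length, 35.7% held a GC box and 49.6% a SMAD box, so both motifs are common. Neither window contained TATAAA, found in 13.6% of all promoters, or the AP-1 letters TGANTCA, found in 7.81%.

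The 10 genes split between endothelium and fibroblasts. Eln, Fbln5, Ltbp4, Fbln2, Emilin1 and Lox were higher in EC-like cells, and Fbn1, Mfap5, Loxl1 and Mfap4 were higher in fibroblast-like cells, with the same direction in both libraries. At least a 2-fold difference between the classes was reached by 9 of the 10 genes in each library, against 28.3% of all genes tested in the old library and 26.5% in the young one. Genes counted as tested had at least 100 UMIs in the 2 sums compared.

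Eln, which encodes elastin, stood at 211 CPM in fibroblast-like and 879 CPM in EC-like cells of the old library, and at 321 CPM in fibroblast-like and 2273 CPM in EC-like cells of the young library. The log2 ratio of fibroblast-like over EC-like cells was -2.06 in old and -2.82 in young. Cells that should lack the transcript carried some of it: Eln stood at 169 CPM in T or NK-like cells and 120 CPM in macrophage-like cells of the old library. The fibroblast-like level of Eln in the old library was therefore close to that of cells that should lack it, and its EC-like level was well above.

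Fbn1, which encodes fibrillin-1, the backbone of the microfibril, showed the opposite pattern. It stood at 841 CPM in fibroblast-like and 32.1 CPM in EC-like cells of the old library (log2 ratio 4.71, interval 4.57 to 4.86), and at 1256 CPM in fibroblast-like and 28.7 CPM in EC-like cells of the young library (log2 ratio 5.45, interval 5.27 to 5.63). Macrophage-like cells of the old library carried 22.2 CPM of Fbn1 (interval 12.9 to 35.5) and erythroid-like cells 18.2 CPM from 3 UMIs. T or NK-like cells carried 202 CPM. The EC-like level lay within the range of these classes and was not shown to stand above background. T or NK-like cells are an uncertain background, since their markers were seen in a mean of 36.1% of that cluster's cells. Whether other cells are mixed in was not tested.

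The other microfibril genes followed Fbn1. Mfap5, which encodes a microfibril-associated glycoprotein, was the most abundant of the 10 in fibroblast-like cells, at 3718 CPM in old and 4393 CPM in young, where it ranked 34th and 15th among all genes. It stood at 334 and 347 CPM in EC-like cells of the old and young libraries, beside 106 CPM in macrophage-like, 109 CPM in erythroid-like and 488 CPM in T or NK-like cells of the old library. Mfap4, a microfibril-associated protein that binds elastin, held 141 UMIs in old and 796 UMIs in young fibroblast-like cells, and 20 and 56 UMIs in the far more numerous EC-like cells.

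The lysyl oxidases, which cross-link elastin, parted by class. Loxl1, the family member tied to elastic fibre renewal, stood at 611 CPM in old and 791 CPM in young fibroblast-like cells, and at 14.2 and 15.1 CPM in EC-like cells of the old and young libraries. Lox, the founding member of the family, stood at 46.9 CPM in old and 60.3 CPM in young fibroblast-like cells, and at 98.6 and 205 CPM in EC-like cells. The log2 ratio of fibroblast-like over EC-like cells was 5.43 in old and 5.71 in young for Loxl1, and -1.07 in old and -1.77 in young for Lox.

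Among the 10 genes, those of the assembly step sat on the endothelial side. Most of 12 further assembly and microfibril genes, part of the pathway list described below, did not. Of these, 8 of 9 tested in old and 9 of 10 in young were at least 2-fold higher in fibroblast-like cells. They include Dcn, a marker used to name that class, and 1 was at least 2-fold lower in each library. Of all genes tested, 28.3% in old and 26.5% in young were at least 2-fold apart either way. Ltbp4, a latent TGF-beta binding protein that helps place elastin on microfibrils, stood at 282 CPM in old and 588 CPM in young fibroblast-like cells, and at 1291 and 1588 CPM in EC-like cells, where it was the highest of the 10 in the old library. Emilin1, a glycoprotein at the border of elastin and microfibril, stood at 41.3 CPM in old and 45.7 CPM in young fibroblast-like cells, and at 150 and 132 CPM in EC-like cells. Fbln5, the fibulin that brings tropoelastin together with the cross-linking enzymes, missed the 2-fold mark in the old library (log2 ratio -0.84), where its EC-like level was 601 CPM, against 1562 CPM in the young library. Fbln2, a fibulin of the vessel wall, missed it in the young library (log2 ratio -0.26), where its fibroblast-like level was 634 CPM, against 318 CPM in the old library.

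**Figure D1:**
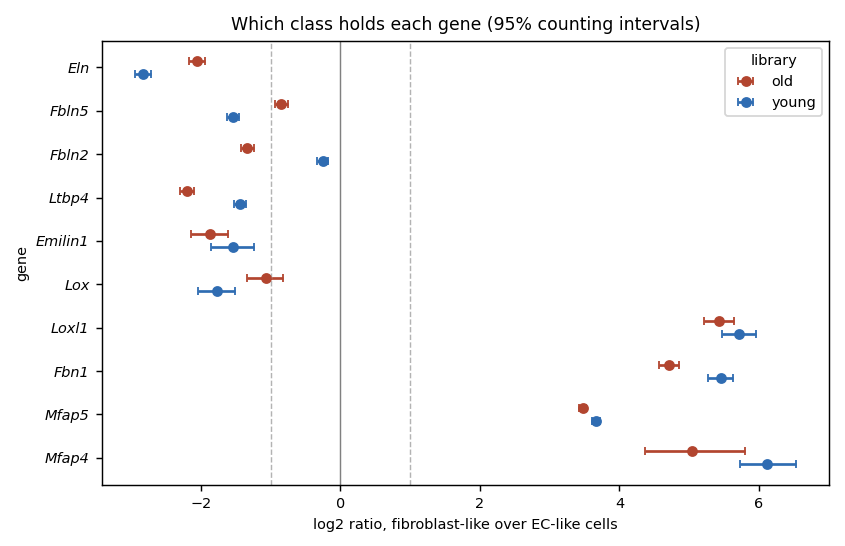
Log2 ratio of the level in fibroblast-like over EC-like cells (x axis) for each gene (y axis) in the old (red) and young (blue) library; points are ratios of summed UMIs, bars are 95% counting intervals, and dashed lines mark 2-fold. Fbn1, Mfap5, Loxl1 and Mfap4 lie right of the 2-fold line, between 3.48 and 6.12, and the other genes lie left of 0.

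Smooth muscle, the class regarded as the main source of aortic elastin, was barely held by these libraries. In the 11 smooth muscle-like cells of the old library Eln had 73 UMIs (1116 CPM), Ltbp4 had 35 UMIs and Fbln5 25 UMIs. No level of smooth muscle can be compared between ages from these data.

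Within the endothelium, Eln and Fbln5 followed the subtype marked by Adra2a, Coch and Sost. Clusters with a summed level of those 3 genes above that of all EC-like cells (Coch-high) held 408 old and 457 young cells, and the remaining clusters (Coch-low) held 1969 old and 624 young cells. That sum was 886 and 1023 CPM in the 2 Coch-high clusters and between 139 and 178 CPM in the 3 Coch-low clusters. None of the 10 genes took part in the clustering. In the old library Fbln5 stood at 1381 CPM in Coch-high and 419 CPM in Coch-low cells, and in the young library at 2338 CPM in Coch-high and 761 CPM in Coch-low cells. The log2 ratio of Coch-high over Coch-low was 1.72 (1.66 to 1.78) in old and 1.62 (1.57 to 1.67) in young, so Fbln5 was enriched to a similar degree at both ages.

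Eln had the same direction and a smaller ratio. It stood at 1539 CPM in Coch-high and 726 CPM in Coch-low cells of the old library (log2 ratio 1.08), and at 2935 CPM in Coch-high and 1589 CPM in Coch-low cells of the young library (log2 ratio 0.89). Eln and Fbln5 were at least 2-fold apart in the old library and Fbln5 in the young one, out of 9 genes tested, where 2.46% and 2.35% of all genes were. Ltbp4 leaned the same way, with log2 ratios of 0.46 in old and 0.30 in young, as did Lox with 0.22 and 0.29.

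Mfap5 leaned to the Coch-low cells, with log2 ratios of -0.70 in old and -0.97 in young, and Fbln2 did so more weakly, with -0.28 and -0.22. The old EC-like level of Mfap5 (334 CPM) lay under that of old T or NK-like cells (488 CPM). It lay above that of old macrophage-like (106 CPM) and erythroid-like cells (109 CPM). The part of background RNA in the Mfap5 ratios was not tested. Fbn1 and Loxl1, whose EC-like levels were near background, did not differ between the subtypes beyond their counting intervals. For Fbn1 the log2 ratio was -0.01 with an interval of -0.36 to 0.34 in old and 0.04 with an interval of -0.30 to 0.39 in young.

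Between ages, Eln, Fbln5 and Lox were lower in the old endothelium. In EC-like cells Eln held 12354 UMIs in the old library and 22856 UMIs in the young library, and stood at 879 CPM in old and 2273 CPM in young (log2 ratio of old over young -1.37, interval -1.40 to -1.34). Fbln5 stood at 601 CPM in old and 1562 CPM in young (log2 ratio -1.38, interval -1.42 to -1.34), and Lox at 98.6 CPM in old and 205 CPM in young (log2 ratio -1.06, interval -1.16 to -0.96). These were 3 of the 9 genes tested, with 0 at least 2-fold higher. Of all 10017 genes tested, 2.01% were at least 2-fold lower, 1.32% at least 2-fold higher and 3.32% at least 2-fold apart either way.

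The other genes of the set that were tested in EC-like cells were close between the 2 libraries. Ltbp4 had a log2 ratio of -0.30 (interval -0.33 to -0.27), Fbln2 0.08 (0.04 to 0.12), Emilin1 0.18 (0.08 to 0.28) and Mfap5 -0.06 (-0.12 to 0.01). Elastin, an assembly fibulin and a cross-linking enzyme were thus lower in old, while a further fibulin and the TGF-beta binding protein stayed within a log2 ratio of 0.30 either way. The median over the 9 genes was -0.09, beside 0.07 over all genes tested. Mfap4, with 20 UMIs in old and 56 in young, was not tested in this class.

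The preparations differed in ways that move with this comparison. Endothelial markers summed to 9365 CPM in old and 9421 CPM in young EC-like cells, while smooth muscle markers summed to 336 and 329 CPM (Cnn1 at 0 in young) and fibroblast markers to 418 and 458 CPM. Haemoglobin genes summed to 602 CPM in old and 25.3 CPM in young EC-like cells, monocyte or macrophage markers to 102 and 8.95 CPM, and Fos, an immediate-early gene that responds to handling, stood at 220 and 874 CPM. The part of haemoglobin RNA, macrophage RNA and handling in the result was not tested. With EC-like cells left out that held a UMI of Myh11 or Cnn1 or at least 3 fibroblast markers, an alternative added after seeing the data that took out 17.9% of old and 39.0% of young cells, Eln had a log2 ratio of -1.28, Fbln5 -1.25 and Lox -1.02.

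The endothelial subtypes were not equally mixed at the 2 ages. Coch-high cells gave 18.9% of the EC-like UMIs in the old library and 50.8% in the young library, so genes high in them are lower in the old total even at equal levels within each subtype. Within Coch-high cells Eln stood at 1539 CPM in old and 2935 CPM in young (log2 ratio -0.93), Fbln5 at 1381 and 2338 CPM (-0.76), and Lox at 111 and 225 CPM (-1.02). Of the 9 genes tested there, Lox was at least 2-fold lower, where 1.85% of all genes were (2.44% either way). Eln and Fbln5 were lower in old by less than 2-fold, with counting intervals that stayed below 0. Mfap4 had 0 UMIs in old and 20 UMIs in young Coch-high cells.

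Within Coch-low cells Eln stood at 726 CPM in old and 1589 CPM in young (log2 ratio -1.13), Fbln5 at 419 and 761 CPM (-0.86), and Lox at 95.6 and 184 CPM (-0.95). With coarser clusters (resolution 0.3), which left 46 young cells in this subtype, Lox had -0.13 and Eln -0.67, and in Coch-high cells Fbln5 had -0.40. Eln was at least 2-fold lower among 9 genes tested, where 1.63% of all genes were (2.81% either way). Different clusters held most of each subtype at each age: 2 clusters held 1319 and 615 of the 1969 old Coch-low cells and another held 575 of the 624 young ones, while 1 cluster held 401 of the 408 old Coch-high cells and another held 404 of the 457 young ones. Eln was lower in old in each of the 3 endothelial clusters that held at least 20 cells of both ages. It stood at 647 CPM in old and 1252 CPM in young in the first (Coch-low). The second (Coch-high) had 1535 and 2391 CPM, and the third (Coch-low) 1157 and 1615 CPM. Fbln5 stood at 574 CPM in old and 737 CPM in young in the first, 1377 and 1768 CPM in the second, and 751 and 769 CPM in the third. Lox was higher in old in the first, at 89.1 CPM in old and 63.6 CPM from 10 UMIs in young. It was lower in the second, at 111 and 175 CPM, and in the third, at 135 and 189 CPM. The first held 30 young cells, the second 53 young cells and the third 35 old cells.

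The 2 subtypes were then given the same weights at both ages. At the pooled shares (32.2% of EC-like UMIs from Coch-high cells) the log2 ratio of old over young was -1.03 for Eln, -0.80 for Fbln5 and -0.97 for Lox, beside -1.37, -1.38 and -1.06 over all EC-like cells. Weighting thus moved the log2 ratio by 0.34 for Eln, 0.58 for Fbln5 and 0.09 for Lox, and all 3 stayed lower in old. The weights fixed only the shares of the 2 subtypes. The clusters within each subtype still differed between ages, so the mix was not fully held. Mfap5, higher in Coch-low cells, had a log2 ratio of -0.30 at the fixed mix and -0.06 without it, and Ltbp4 -0.18 and -0.30.

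**Figure D2:**
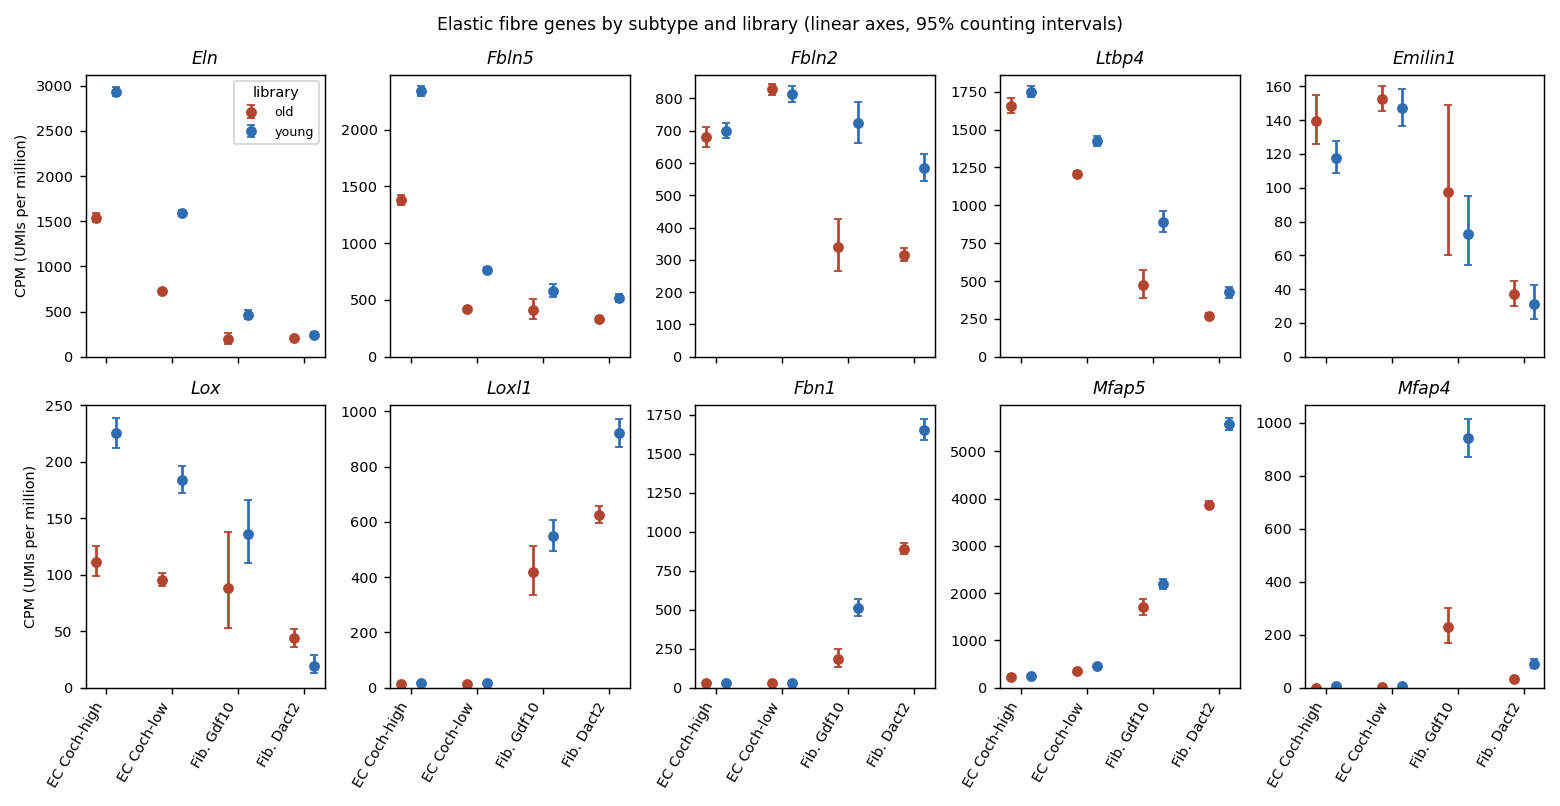
Level of each gene in CPM (y axes, linear, own scale per gene) in the 2 endothelial and 2 fibroblast subtypes (x axis) of the old (red) and young (blue) library; bars are 95% counting intervals. Eln and Fbln5 are highest in Coch-high cells and lower in old in both endothelial subtypes, while Mfap4 is highest in young Gdf10 cells (942 CPM).

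Eln was seen in most endothelial cells at both ages, and in fewer of the old ones at equal depth. Each cell was thinned to 3100 UMIs, which left out 559 old and 101 young EC-like cells that were shallower. Eln was then seen in 83.3% of 1818 old cells (exact 95% interval 81.5 to 85.0%) and 96.0% of 980 young cells (94.6 to 97.2%); without thinning the shares were 88.2% and 98.4%. Old macrophage-like cells at the same depth showed it in 25.5% and old erythroid-like cells in 16.0%, shares that free RNA or doublets can give. In Coch-high cells Eln was seen in 94.8% of old and 98.8% of young cells, and the mean was 4.64 UMIs per cell in old and 9.38 UMIs per cell in young. The tenth of EC-like cells with most Eln held 29.9% of its UMIs in old and 25.9% in young.

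Fbln5 was seen in 63.9% of old and 85.8% of young EC-like cells, and Lox in 26.0% of old and 45.6% of young EC-like cells. For Lox the share in old macrophage-like cells was 7.27%. Ltbp4 was seen in nearly all EC-like cells at both ages, 95.9% in old and 98.0% in young, and Fbln2 in 87.1% and 86.7%. Old macrophage-like cells at that depth showed Fbln5 in 17.3%, Ltbp4 in 40.0% and Fbln2 in 23.6%. A thinned EC-like cell showed a median of 5 of the 10 genes at both ages, with a mean of 12.9 UMIs of the set in old and 20.7 in young. Old T or NK-like cells at that depth (31 cells) showed a mean of 5.10 UMIs of the set. The mean was 2.16 in old macrophage-like (110 cells) and 1.92 in old erythroid-like cells (25 cells). The macrophage-like shares given for single genes may therefore not be the highest background.

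**Figure D3:**
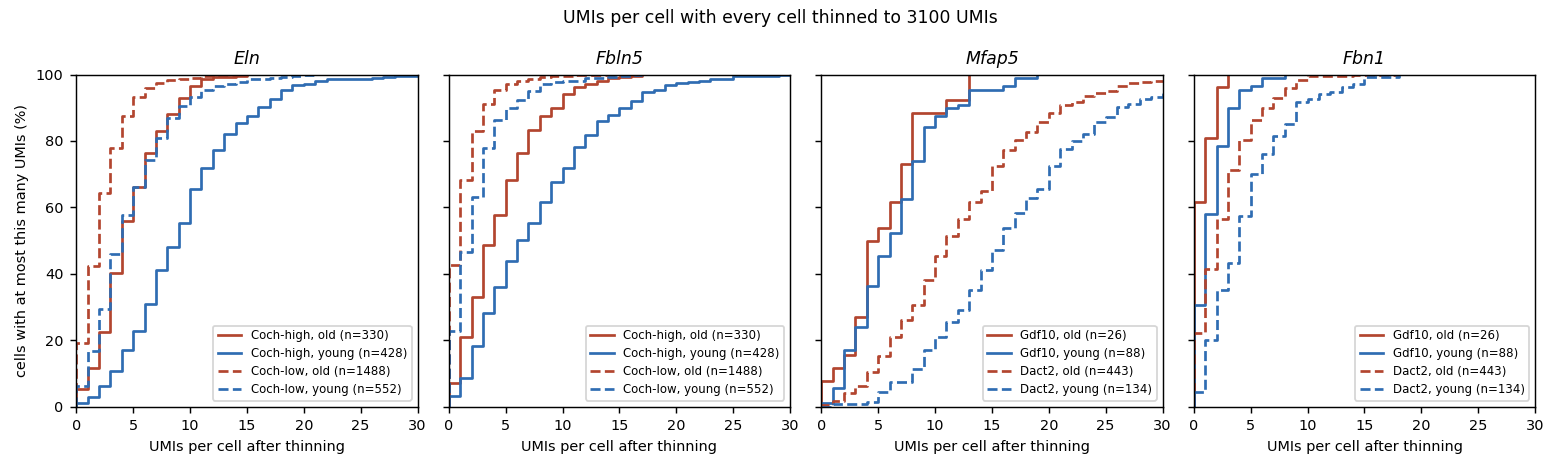
Share of cells with at most the given number of UMIs (y axis, %) against UMIs per cell after thinning to 3100 UMIs (x axis) for Eln and Fbln5 in endothelial subtypes and Mfap5 and Fbn1 in fibroblast subtypes; red lines are old, blue lines young, solid lines Coch-high or Gdf10, dashed lines Coch-low or Dact2. The whole curve of Eln in Coch-high cells lies further right in young, with a median of 4 UMIs in old and 9 UMIs in young.

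Among cells of 1 subtype, pairs of the 10 genes mostly gave low Spearman coefficients. Eln and Fbln5 gave the highest Spearman coefficient of any pair, 0.30 over 330 old and 0.38 over 428 young Coch-high cells thinned to equal depth. The medians over pairs of genes lay between -0.01 and 0.08 in the 7 groups of cells examined. Some genes had 0 UMIs in most thinned cells, such as Fbn1 in 1349 of 1488 old Coch-low cells. A low coefficient therefore cannot show that levels are unrelated. These coefficients describe cells that share a library and carry no test.

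In fibroblast-like cells all 10 ratios of old over young lay below 0, as did those of 59.7% of all genes tested, and 2 genes passed the 2-fold mark. Mfap4 stood at 46.9 CPM in old and 387 CPM in young (log2 ratio -3.04, interval -3.31 to -2.78), and Ltbp4 at 282 CPM in old and 588 CPM in young (-1.06, interval -1.19 to -0.94). Over all genes tested, 2.66% were at least 2-fold lower and 4.25% at least 2-fold apart. Fbln2 lay just inside the mark at 318 CPM in old and 634 CPM in young (log2 ratio -0.996). Fbn1 stood at 841 CPM in old and 1256 CPM in young (-0.58), Loxl1 at 611 and 791 CPM (-0.37), and Mfap5 at 3718 and 4393 CPM (-0.24). Emilin1, at 41.3 CPM in old and 45.7 CPM in young, did not differ beyond its counting interval (-0.15, interval -0.55 to 0.26).

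The median over the 10 genes was -0.59, beside -0.09 over all genes tested. The 8 fibroblast markers that define the class were also all lower in old, with a median log2 ratio of -1.03, 4 of them at least 2-fold lower, and a summed level of 13666 CPM in old and 23557 CPM in young. Endothelial markers in fibroblast-like cells summed to 1113 CPM in old and 603 CPM in young, and haemoglobin genes to 1344 and 25.8 CPM. The part of these in the lower levels was not tested. Without fibroblast-like cells that held at least 3 endothelial markers or a UMI of Myh11 or Cnn1, an alternative also added after seeing the data, which left out 66.4% of old and 54.8% of young cells, 4 genes were at least 2-fold lower. There Eln had a log2 ratio of -1.37 and Lox -1.87, and Mfap5 had 0.08.

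Fibroblast-like cells fell into a cluster led by Gdf10, with 65 old and 102 young cells, and a cluster led by Dact2 and Igfbp5, with 507 old and 137 young cells. Mfap4 names the first subtype as well but was not used to assign cells. In the old library Mfap4 stood at 228 CPM in Gdf10 and 33.0 CPM in Dact2 cells (log2 ratio of Gdf10 over Dact2 2.79), and in the young library at 942 CPM in Gdf10 and 88.9 CPM in Dact2 cells (3.41). Fbn1 went the other way, with 181 CPM in Gdf10 and 892 CPM in Dact2 cells of the old library (-2.30) and 512 CPM in Gdf10 and 1656 CPM in Dact2 cells of the young library (-1.69).

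Mfap5 was abundant in both subtypes and higher in Dact2 cells, at 1696 CPM in Gdf10 and 3874 CPM in Dact2 cells of the old library (log2 ratio -1.19) and 2193 and 5574 CPM in the young library (-1.35). It was the 33rd most abundant gene of Dact2 cells in old and the 7th in young. Lox, low in fibroblasts as a class, had a higher level in Gdf10 cells. It stood at 88.3 CPM in Gdf10 and 43.7 CPM in Dact2 cells of the old library (1.01, interval 0.23 to 1.72). In the young library it stood at 136 and 19.4 CPM (2.81). The old value rests on 19 UMIs in Gdf10 and 122 UMIs in Dact2 cells. In each library 5 genes were at least 2-fold apart between the subtypes, of 10 tested in old and 9 in young, where 9.84% and 7.35% of all genes were. Emilin1 made up the 5 in old (1.40, interval 0.65 to 2.09) and Ltbp4 in young (1.07). The Emilin1 value rests on 21 UMIs in Gdf10 and 103 UMIs in Dact2 cells.

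The share of Gdf10 cells differed between ages, so the age comparison was repeated within each subtype, an addition made after seeing the cell numbers. In Gdf10 cells Mfap4 held 49 UMIs in old (228 CPM) and 677 UMIs in young (942 CPM), a log2 ratio of -2.05. Fbn1 had a log2 ratio of -1.50, Eln -1.25 and Fbln2 -1.09. With Mfap4, 4 of 9 genes tested were at least 2-fold lower, where 5.78% of all 1401 genes tested were (6.5% either way). Of the 8 fibroblast markers, 7 were also lower in old Gdf10 cells and 4 at least 2-fold lower. Their median log2 ratio was -0.91, and that of the 9 genes was -0.91. Endothelial markers summed to 1380 CPM in old and 508 CPM in young Gdf10 cells. The part of this in the lower levels was not tested. A few young cells held much of the Eln: at 3100 UMIs it was seen in 14 of 26 old and 44 of 88 young Gdf10 cells, and the tenth of cells with most Eln held 27.3% of its UMIs in old and 64.9% in young. In Dact2 cells the log2 ratio of Eln was -0.20 (interval -0.39 to 0.00). Ltbp4, past the mark over the whole class, was inside it within each subtype, at -0.91 in Gdf10 and -0.67 in Dact2 cells. In Dact2 cells Mfap4 had a log2 ratio of -1.43 from 92 old and 119 young UMIs. Lox was at least 2-fold higher in old Dact2 cells, 43.7 CPM from 122 UMIs in old and 19.4 CPM from 26 UMIs in young (log2 ratio 1.17, interval 0.55 to 1.84), beside 33.2 CPM in old T or NK-like cells. It was seen in few of them, 11.2% of old and 15.3% of young Dact2 cells, or 6.55% of 443 old and 5.97% of 134 young cells at 3100 UMIs, where the mean was 0.0971 UMIs per cell in old and 0.0746 in young. Endothelial markers summed to 1093 CPM in old and 654 CPM in young Dact2 cells. Over the whole fibroblast-like class Lox had a log2 ratio of -0.36, or -1.87 without the cells left out above for other markers. The part of endothelial RNA in the Lox value of Dact2 cells was not tested. Mfap4 and Lox were 2 of 10 genes tested in Dact2 cells, where 3.63% of all genes were at least 2-fold apart.

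Mfap4 was also seen in a smaller share of old Gdf10 cells at equal depth. At 3100 UMIs it was seen in 4 of 26 old Gdf10 cells (15.4%, interval 4.36 to 34.9%) and 53 of 88 young Gdf10 cells (60.2%, interval 49.2 to 70.5%). Shallower cells left out were 39 of the 65 old and 14 of the 102 young Gdf10 cells, whose median depth was 2854 UMIs in old and 6398 UMIs in young. In Dact2 cells at that depth, 412 of 443 old and 119 of 134 young cells had no Mfap4 UMI, so most cells of both ages showed none. Mfap5 was seen in 99.5% of old and 100% of young Dact2 cells, at a mean of 12.3 UMIs per cell in old and 16.9 UMIs per cell in young.

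**Figure D4:**
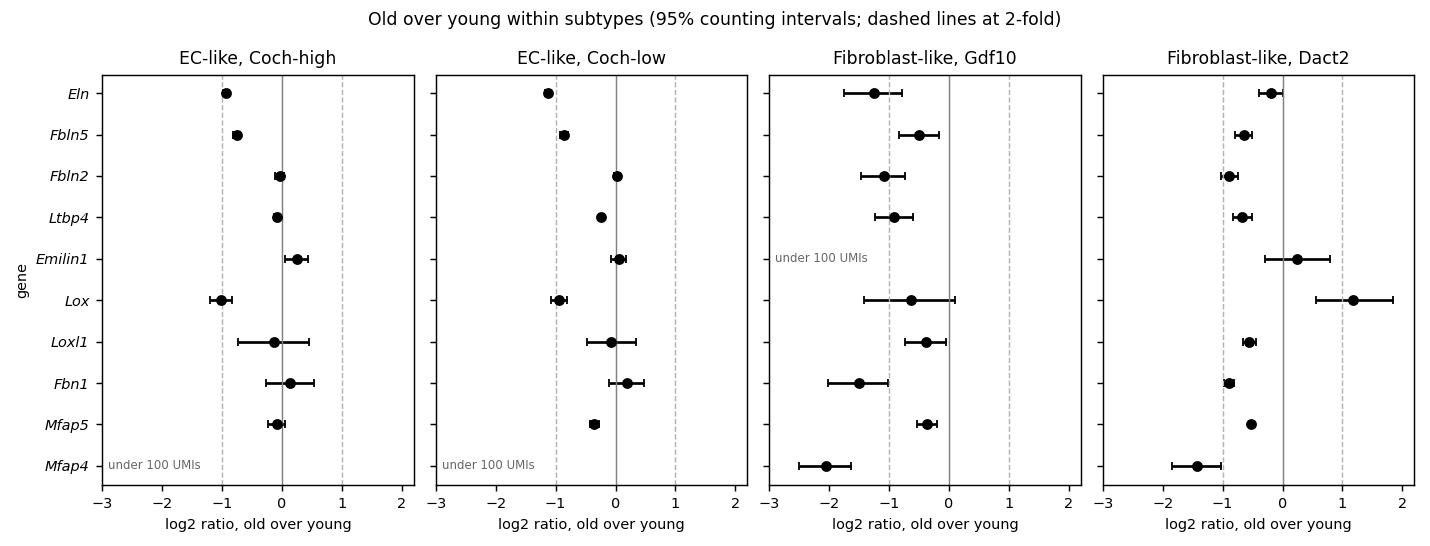
Log2 ratio of old over young (x axes) for each gene (y axis) within the 2 endothelial and 2 fibroblast subtypes; bars are 95% counting intervals, dashed lines mark 2-fold, and genes with under 100 UMIs carry no point. Eln, Fbln5 and Lox lie left of 0 in both endothelial subtypes, between -1.13 and -0.76, and Mfap4 lies left of the 2-fold line in both fibroblast subtypes.

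Summed over the 10 genes, elastic fibre transcripts made up 4202 CPM in old and 6914 CPM in young EC-like cells, and 6451 CPM in old and 9015 CPM in young fibroblast-like cells. In Coch-high cells the sum was 5778 CPM in old and 8351 CPM in young. Eln ranked 108th in old and 29th in young among all genes of those cells.

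Further genes of the pathway, 51 in a list made with earlier results of these data known, were mostly close between ages. In EC-like cells 37 were tested, 0 were at least 2-fold higher and 2 at least 2-fold lower in old, where 2.01% of all genes tested were lower, and their median log2 ratio was -0.14, beside 0.07 over all genes. Among the lower ones was Thbs1, which encodes thrombospondin-1, an activator of latent TGF-beta, at 57.2 CPM in old and 125 CPM in young (-1.13). Genes for elastin receptor subunits and elastolytic enzymes were among those under 2-fold: 6 of 6 receptor and integrin genes and 6 of 12 protease genes were tested, and 0 of either passed the mark.

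In fibroblast-like cells 39 of the 51 were tested, 1 was at least 2-fold higher and 4 at least 2-fold lower in old, where 2.66% of all genes tested were lower, and their median was -0.35, beside -0.09 over all genes. Tgfb2, a TGF-beta ligand, stood at 108 CPM in old and 39.4 CPM in young (log2 ratio 1.46). Fbln1, a further fibulin, stood at 214 CPM in old and 607 CPM in young (-1.51), and Pcolce, an enhancer of procollagen processing by the enzyme Bmp1, at 487 and 1198 CPM (-1.30). Fbln7 (-1.34, from 70 old and 121 young UMIs) and Tgfb3 (20.6 CPM from 62 UMIs in old and 41.3 CPM from 85 UMIs in young) were the remaining lower ones. Fbn2, which encodes the fibrillin of the embryo, had 0 UMIs in EC-like and fibroblast-like cells of both libraries, which allows up to 0.214 CPM in old and 0.298 CPM in young EC-like cells if 3 UMIs are taken as the limit of a count of 0.

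Over 12 groups of at least 20 cells, formed by class or subtype and library, the genes with profiles most like Eln by Pearson r of log2(CPM + 1) were Sptan1, Itgb1, 9430020K01Rik, Adamts10 and Creb3l2, with r of 0.94 to 0.95. Ltbp4 came 12th (0.94) and Fbln5 56th (0.91). Most like Fbn1 were Dbn1, Pla2r1, Tubb4a, Arsi and Cd248, with r of 0.97 to 0.98, and Loxl1 came 18th (0.96) and Mfap5 31st (0.95). Groups from 1 library share its depth and free RNA, so these values are descriptions and carry no test.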

How the data were processed

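The deposited values are raw UMI counts, whole numbers for each gene in each barcode. Cell Ranger and the GRCm38 build are named in the submitters' processing notes; its version, annotation and cell-calling settings are not stated there. The lowest barcode held 1541 UMIs in old and 2287 in young.

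Barcodes under 200 genes or over 10% mitochondrial UMIs were dropped. Scrublet marked 6 old and 6 young barcodes for removal, too few to serve as a check on doublets, so doublets remain among the cells. Cells of both libraries were clustered together in scanpy 1.11.5 without batch correction (2000 variable genes, 30 components, 15 neighbours, Leiden resolution 0.5), with the 10 genes and the pathway list kept out of the variable genes. Clusters were named from markers seen in at least 25% of their cells; 1 cluster with endothelial markers and other classes' genes on top (55 old and 15 young cells) stayed unnamed. Fibroblast clusters were assigned by Gdf10 or by Dact2 and Igfbp5, whichever was more enriched.

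UMIs were summed per class, subtype and library and scaled to CPM. Ratios carry exact conditional binomial 95% intervals, CPM exact Poisson ones and shares Clopper-Pearson ones. With 1 library per age no test was made: a difference counts as such at 2-fold or more with at least 100 UMIs in the 2 sums compared. The code was tested on simulated counts. Thinning drew 3100 UMIs per cell, the 25th percentile of old EC-like cells rounded down. Named genes are the 10 members, each pathway gene at least 2-fold apart between ages (1 of them is not reported here), and the 5 genes most like Eln and Fbn1; Fbn2 falls outside this and was chosen after its values were seen. The members, the pathway list and the markers were chosen with earlier results of these data known. Other filters, clusterings, scalings and weightings were tried, and their effect is given at the end.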

Additional observations from a re-analysis of the deposited data

Results flagged for a closer look

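Fbln2 had ratios of opposite sign in the 2 main classes. Its log2 ratio of old over young was 0.0812 in EC-like cells (800 CPM in old and 757 CPM in young) and -0.996 in fibroblast-like cells (318 CPM in old and 634 CPM in young). The difference between the classes was not tested, since each age has 1 library. The EC-like value is well under 2-fold, and it was -0.04 within Coch-high cells, so a higher level in old endothelium is not shown.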

How the results depend on the processing

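Of 135 recomputed counts of genes at least 2-fold apart, 109 were within 1.5 times the reported count. Of 426 recomputed single-gene values 356 stayed within the 95% counting interval, with 0 changes of sign among genes at least 2-fold apart. Some ratios of old over young under 2-fold did change sign. Loxl1 did so in EC-like cells and both endothelial subtypes, from -0.07 as reported to as much as 1.80 in Coch-low cells. Emilin1 did so in Coch-low and fibroblast-like cells, Fbln2 in both endothelial subtypes, and Mfap5 in fibroblast-like cells. In EC-like cells the count of 3 stayed within 1.5 times under every alternative run, with Eln between -1.43 and -1.28, Fbln5 between -1.44 and -1.25 and Lox between -1.12 and -1.003. Within subtypes, values moved more: Eln lay between -1.34 and -0.71 in Coch-high and -1.19 and -0.67 in Coch-low cells, Fbln5 between -1.31 and -0.40 and between -1.18 and -0.56, and Lox between -1.08 and -0.98 and between -1.01 and -0.13. Counts moved too. The Coch-high count between ages (1) was 0 under a stricter cell filter (500 genes, 5% mitochondrial UMIs), 0 with the 10 genes kept for clustering, 0 at Leiden resolution 0.3, 0 with CPM without mitochondrial, ribosomal protein and haemoglobin genes, 2 with a minimum of 20 UMIs and 3 with subtypes taken from each cell's own UMIs. The Coch-low count (1) was 2 under that filter, with the 10 genes kept, centred on the median gene and with a minimum of 20 UMIs. The Dact2 count (2) was 1 under the stricter filter, with the 10 genes kept, at resolution 0.3 and by own UMIs, and the Gdf10 count (4) was 2 by own UMIs. The fibroblast-like count (2) was 1 without the 3 gene groups in CPM, 1 centred, and 4 without cells with signs of another type. Gdf10 over Dact2 in old (5) gave 3 with the 10 genes kept and 3 at resolution 0.3. Coch-high over Coch-low gave 1 in old (2) at resolution 0.3 and by own UMIs, and in young (1) 2 with the 10 genes kept and 3 at resolution 0.3, where 1050 of 1096 young EC-like cells fell in Coch-high. The fixed-mix count (1) was 0 at the young mix. The number of genes seen in a smaller share of old EC-like cells (6) was 10 without thinning. The cause of these shifts was not tested. No paired analysis was possible because each age has 1 library. Counts under 100 UMIs and the 65 old Gdf10 cells limit what can be compared.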
